A study of Mus musculus with 26 samples.

Results

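The genes described are Hmgcs1, Idi1, Fdps, Sqle, Lss, Cyp51 and Insig1, 7 of the 24015 genes with deposited values, taken by gene symbol in all 15 RNA-seq libraries. They were named for cholesterol synthesis and uptake, but 6 of them encode synthesis enzymes and Insig1 encodes a sterol sensor, so none of the 7 is an uptake gene. Uptake genes are given beside them. The libraries came from mouse embryonic stem cells (mESCs) of the Stella:GFP line, which carries a reporter of the germline gene Stella, and compared wild-type cells with cells that lack the transcriptional regulator Prdm14 or its partner, the corepressor Mtgr1 (gene Cbfa2t2). Of wt mESCs 1 library came from serum+LIF and 2 from 2i+LIF. Prdm14-/- cells were 2 CRISPR-Cas9 clones (G6 and F10), and each clone was also sequenced after tagged Prdm14 had been added back (FH-Prdm14) and after Prdm14 with the substitution E294K, at the surface that meets Mtgr1, had been added back (E294K). Mtgr1-/- cells were 3 clones (A3, C1 and C3), each with a line in which tagged Mtgr1 had been added back (FH-Mtgr1). All lines were kept in 2i+LIF, a serum-free medium with the MEK inhibitor PD0325901 (0.8 µM) and the GSK3β inhibitor CHIR99021 (3.3 µM), and all but the 2i+LIF libraries were taken after 5 days in medium with 15% fetal bovine serum. Serum brings lipoprotein cholesterol that the serum-free medium does not, and the lipid supply itself was not measured. Each replicate in the knockout and rescue conditions is a clone, and for the wt 2i+LIF pair the labels do not say whether the libraries came from separate cultures, so p-values measure the spread between these clones and libraries.

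Mammalian cells make cholesterol from acetyl-CoA through mevalonate, isoprenoid diphosphates, squalene and lanosterol, and they take it up from lipoproteins. When sterols in the endoplasmic reticulum run low, SCAP carries the SREBP transcription factors to the Golgi, where they are cut and released to the nucleus to switch on the enzymes of the pathway and Insig1. INSIG1 holds SCAP back when sterols are plentiful, so it acts as the brake on the pathway whose enzymes it is co-regulated with.

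RNA-seq depth ran from 10668572 to 21218414 reads on genes per library (median 13793727), and each measured member had between 543 and 4912 reads per library. Levels are in RPKM, which divides the reads of a gene by its length in kilobases and by the library total. Prdm14 RNA was at 1.96 and 3.60 RPKM in the Prdm14-/- clones, against 2.77 RPKM in wt serum+LIF cells and 79.8 to 116.4 RPKM in the FH-Prdm14 lines. Cbfa2t2 was at 18.0 to 19.9 RPKM in the Mtgr1-/- clones, 25.5 to 28.0 RPKM in the FH-Mtgr1 lines and 40.7 RPKM in wt serum+LIF cells. An edited gene can still give RNA and reads, so these levels do not check the knockouts. In all 15 libraries all 8 markers of pluripotent cells (Pou5f1, Sox2, Nanog, Esrrb, Zfp42, Klf4, Tbx3 and Tfcp2l1) were measured. They added up to between 768 and 2496 RPKM. Pou5f1 had a mean of 534.7 RPKM in Mtgr1-/- cells and 585.4 RPKM in the wt serum+LIF library. Esrrb was at 14.2 RPKM against 92.2 RPKM and Nanog at 29.1 RPKM against 91.2 RPKM. The sum therefore does not show that the stem cell state was alike in all libraries. All 5 markers of hepatocytes and visceral endoderm stayed under 1 RPKM in every library. Of 6 fibroblast markers 2, Col3a1 and Dcn, did so too. The others reached 24.6 RPKM (Thy1, FH-Mtgr1), 16.7 RPKM (Col1a1, Mtgr1-/-), 3.01 RPKM (Pdgfrb, wt serum+LIF) and 2.95 RPKM (Col1a2, Mtgr1-/-).

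Hmgcs1, which joins acetyl-CoA and acetoacetyl-CoA to HMG-CoA before the committed step, was listed at 0 in all 15 libraries, as 3630 genes were. It is therefore described by its sequence only, and no level or difference can be given for it. Its 300-base start region (RefSeq, build GRCm38.p6) matched NCBIM37, the assembly also called mm9, at 2 unplaced sequences with 293 of 293 aligned bases each and at 0 chromosomes, while the start regions of Idi1, Lss, Cyp51 and Insig1 each matched their own chromosome. The 2 unplaced sequences were 99.89% identical over 125241 aligned bases. Whether reads that fit both places were dropped before counting was not tested.

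The other members lay on separate chromosomes or far apart on one. In NCBIM37 they were annotated as Idi1 at chr13:8884852-8891641, Fdps at chr3:88897514-88905881, Sqle at chr15:59146632-59162747, Lss at chr10:75994333-76019883, Cyp51 at chr5:4081145-4104746 and Insig1 at chr5:28397952-28405201. RefSeq promoter sequence was matched for 5 of the 7 members, all but Fdps and Sqle. The 250 bases before the start of transcription are shown in GRCm38.p6, all on the plus strand. They are given for Hmgcs1 (chr13:119690101-119690350), Idi1 (chr13:8885356-8885605), Lss (chr10:76531355-76531604) and Insig1 (chr5:28071162-28071411). With the FH-Mtgr1 lines as the reference, loss of Mtgr1 came with more RNA of Idi1 and Lss and with less of Insig1. Letters were searched on both strands. TCACNCCAC is a core of the sterol regulatory element bound by SREBP, and CACNCCAC is the same core with 1 letter fewer, so each match of the longer one holds a match of the shorter one. CCAAT is the box bound by NF-Y, a factor that works with SREBP, and GGGCGG is the box bound by Sp1. Capitals mark matches of all but GGGCGG, reading 5′ to 3′ along the gene, so that a match on the opposite strand appears as its reverse complement.
Hmgcs1: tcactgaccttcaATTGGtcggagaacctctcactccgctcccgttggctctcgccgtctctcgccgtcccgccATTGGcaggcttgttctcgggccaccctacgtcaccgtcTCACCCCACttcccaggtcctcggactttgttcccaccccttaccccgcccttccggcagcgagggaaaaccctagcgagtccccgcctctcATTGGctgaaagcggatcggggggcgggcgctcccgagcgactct
Idi1: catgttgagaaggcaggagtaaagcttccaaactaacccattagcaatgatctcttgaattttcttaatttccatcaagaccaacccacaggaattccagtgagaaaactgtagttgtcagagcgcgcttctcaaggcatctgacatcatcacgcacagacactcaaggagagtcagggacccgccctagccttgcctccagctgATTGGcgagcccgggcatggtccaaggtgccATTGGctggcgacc
Lss: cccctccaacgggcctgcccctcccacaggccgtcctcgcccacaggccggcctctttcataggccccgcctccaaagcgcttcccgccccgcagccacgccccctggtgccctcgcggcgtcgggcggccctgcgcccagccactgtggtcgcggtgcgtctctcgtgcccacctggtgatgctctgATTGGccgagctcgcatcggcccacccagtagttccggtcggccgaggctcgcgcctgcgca
Insig1: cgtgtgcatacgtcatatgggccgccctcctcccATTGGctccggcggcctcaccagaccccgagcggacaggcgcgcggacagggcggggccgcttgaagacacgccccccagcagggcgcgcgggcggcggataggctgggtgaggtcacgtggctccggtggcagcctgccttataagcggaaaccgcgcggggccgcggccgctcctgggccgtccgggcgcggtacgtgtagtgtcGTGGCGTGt

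CCAAT was found in all 5 promoters, Cyp51 included, and in 33.8% of the 32851 mouse promoters of the same length. GGGCGG was also found in all 5, and in 32.7% of all promoters. TCACNCCAC was found in Hmgcs1 alone of the 5, beginning 137 bases before the start, and in 1.05% of all promoters. CACNCCAC was found in Hmgcs1, within that match, and in Insig1, on the opposite strand 9 bases before the start, and in 5.29% of all promoters. These matches describe letters in a window of 250 bases and are not shown to be bound sites.

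Over the 7 conditions Idi1, Fdps, Sqle and Lss were lowest in the rescue lines and, among the cells in serum+LIF with an edited gene, highest in Mtgr1-/- cells. Insig1 was lowest in Mtgr1-/- cells and highest in 2i+LIF, with the rescue lines between, and Cyp51 was highest in 2i+LIF and lowest in FH-Prdm14 cells. Several neighbours in these orders overlapped, as Idi1 did from 2i+LIF through Prdm14-/- to FH-Prdm14 cells, Fdps from Prdm14-/- through 2i+LIF and E294K to wt serum+LIF cells, Lss through the 5 conditions other than the rescues, and Cyp51 from Mtgr1-/- through FH-Mtgr1 and Prdm14-/- to E294K cells. Insig1 overlapped between wt serum+LIF and FH-Mtgr1 cells and between FH-Prdm14 and Prdm14-/- cells, and its other neighbours were apart. The span between the highest and the lowest library was 1.97-fold for Fdps, 2.38-fold for Idi1, 2.47-fold for Lss, 2.61-fold for Cyp51, 3.34-fold for Sqle and 4.21-fold for Insig1. Fdps was the member with the highest level per length, with a median of 135.7 RPKM over the libraries, and Cyp51 the lowest, with 20.9 RPKM.

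**Figure D1:**
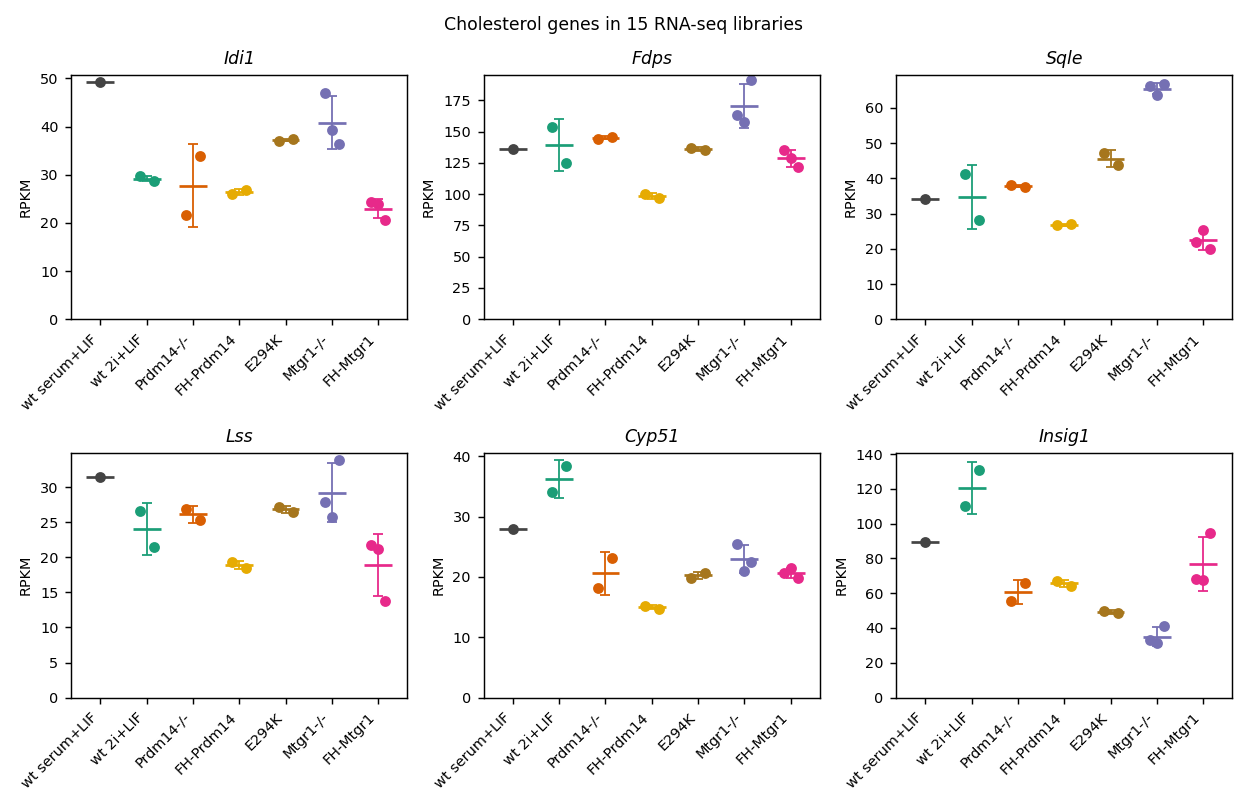
RPKM of the 6 measured members in each library (points), with the mean (horizontal line) and the SD (bars, where a condition has more than 1 library) for the 7 conditions on the x axis. Sqle was between 63.6 and 66.7 RPKM in the 3 Mtgr1-/- libraries and at or under 47.3 RPKM in the other 12, while Insig1 was lowest in the same 3 libraries, at 31.1 to 41.0 RPKM.

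The first comparison asked what loss of Mtgr1 does, with the same clones carrying added Mtgr1 as the reference. With 0.05 as the limit for the adjusted p of limma, 5 of the 6 measured members differed between Mtgr1-/- and FH-Mtgr1 cells, with 4 higher and 1 lower after loss. Over all 13477 genes tested 52.3% differed (26.2% higher and 26.1% lower), so that a difference as such was common in this comparison. The median log2 fold change was 0.52 for the members and -0.01 for all genes. As the libraries hold RNA of whole cultures, a changed share of cells and a changed RNA level per cell cannot be told apart, here and below.

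Sqle, squalene epoxidase, which adds the first oxygen of the sterol branch and is one of its rate-limiting steps, had the widest difference upwards. Clones A3, C1 and C3 without Mtgr1 held 66.2, 63.6 and 66.7 RPKM, and their FH-Mtgr1 lines held 22.0, 25.2 and 19.9 RPKM. The groups were far apart, and each group lay within a narrow range. On the log2(RPKM + 0.5) scale used throughout, Sqle was higher by 1.53 ± 0.14 (SE, adjusted p = 5.63e-06, limma), or 2.9-fold, and this ranged from 1.46 to 1.62 over the alternatives. The wt serum+LIF library, at 34.1 RPKM, lay between the groups.

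Idi1, the isomerase that makes dimethylallyl diphosphate, held 47.0, 39.2 and 36.3 RPKM without Mtgr1 and 24.4, 23.9 and 20.7 RPKM in their rescue lines. The groups did not overlap, and the log2 fold change was 0.81 (SE 0.15, adjusted p = 0.000964, limma). The wt serum+LIF library, at 49.3 RPKM, lay above both groups. Lss, lanosterol synthase, which closes the sterol rings, was at 27.9, 25.8 and 33.9 RPKM in the knockout and 21.7, 21.2 and 13.8 RPKM in the rescue lines. These groups did not overlap either, and the log2 fold change was 0.64 (SE 0.17, adjusted p = 0.00778, limma). For Lss the wt serum+LIF library, at 31.5 RPKM, lay within the range of the knockout.

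Fdps, which makes the farnesyl diphosphate used for sterols and for protein prenylation, was at 163.0, 157.5 and 190.8 RPKM in the knockout and 135.0, 128.7 and 121.8 RPKM in the rescue lines. Its log2 fold change was 0.40 (SE 0.11, adjusted p = 0.00947, limma), the smallest of the 4 increases. The wt serum+LIF library, at 135.7 RPKM, lay between the groups and next to the rescue lines. Cyp51, the lanosterol demethylase just after Lss in the pathway, was at 25.5, 20.9 and 22.5 RPKM against 20.7, 21.5 and 19.9 RPKM. These groups overlapped, and the difference of 0.14 (95% interval -0.12 to 0.41, adjusted p = 0.34, limma) was not resolved from the spread.

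Insig1 moved the other way. Without Mtgr1 the clones held 33.1, 31.1 and 41.0 RPKM, and with Mtgr1 added back they held 68.2, 67.3 and 94.7 RPKM. The groups did not overlap. The log2 fold change was -1.11 (SE 0.15, adjusted p = 9.75e-05, limma). Clone C3 was the highest in both groups. The 5 calls of this comparison held in each of the 16 alternatives run, a replicate block by clone included.

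**Figure D2:**
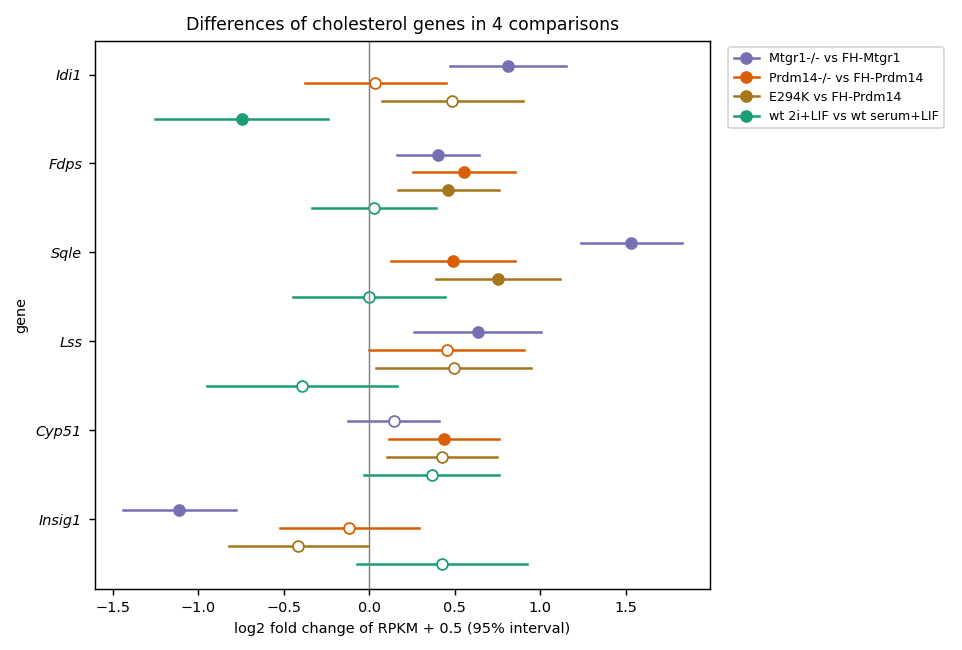
log2 fold change of RPKM + 0.5 (x axis, points) with 95% intervals (lines) for the 6 measured members in 4 comparisons. Filled points have an adjusted p under 0.05 in limma. Mtgr1 loss gave the widest spread among members, from -1.11 for Insig1 to 1.53 for Sqle.

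The rest of the synthesis pathway was read from a list of 15 further enzymes, of which 9 were higher after loss of Mtgr1 and 0 lower, with a median log2 fold change of 0.40. Without clone A3 in the knockout 6 were higher. Among those with the smallest adjusted p were Nsdhl, a sterol dehydrogenase (0.99), Acat2, the cytosolic thiolase that supplies acetoacetyl-CoA (0.99), and Hsd17b7, a sterol keto reductase (1.25), with adjusted p from 9.56e-05 to 0.000154 in limma. Over all 20 measured enzymes, members included, 13 were higher and 0 lower, where 26.2% of all genes were higher and 26.1% lower. The median log2 fold change of the 20 was 0.49 against FH-Mtgr1 cells and 0.13 against the single wt serum+LIF library. For FH-Mtgr1 cells against that wt library the median was -0.45, so the size of the rise depends on the reference.

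**Figure D3:**
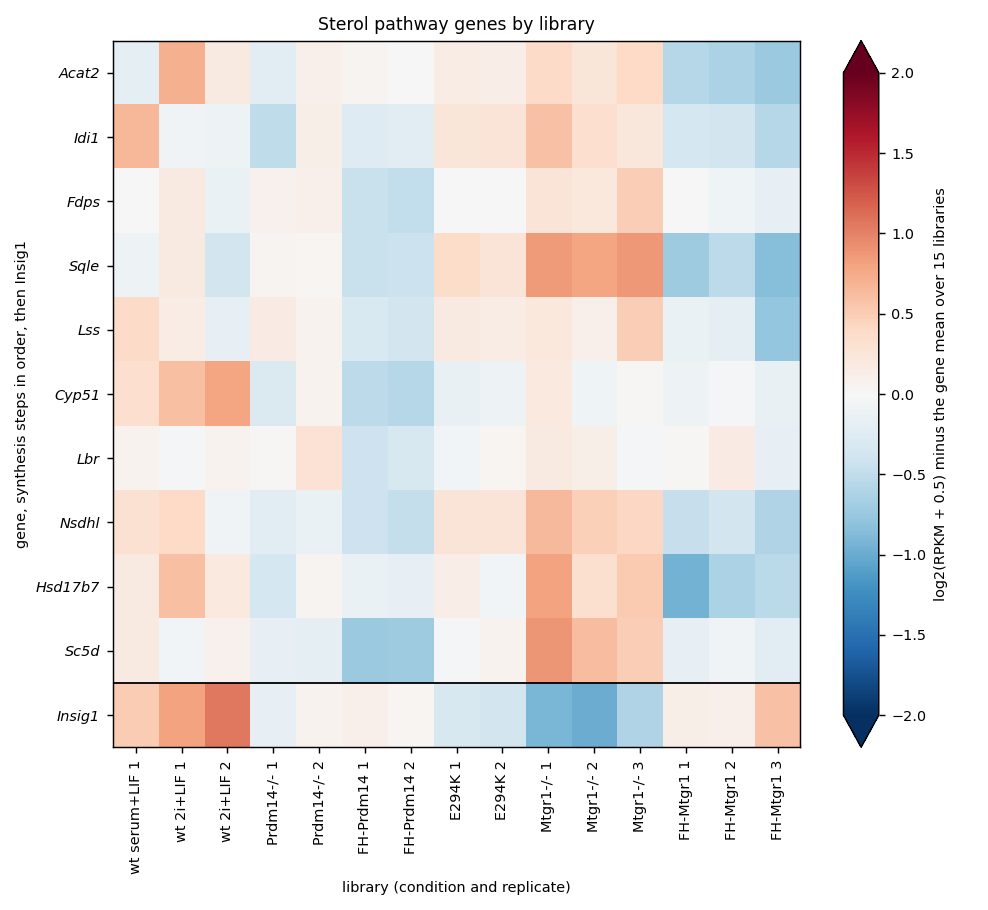
log2(RPKM + 0.5) minus each gene's mean over the 15 libraries (colour), for the 5 measured member enzymes and 5 further enzymes named in the text, from top to bottom in the order of the pathway, then Insig1, with 1 column per library. The 3 Mtgr1-/- columns were above the gene mean for Sqle and Nsdhl and below it for Insig1.

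Of 13 measured genes for uptake and intracellular transport, 4 were higher after loss of Mtgr1 and 4 lower. Over all genes tested 26.2% were higher and 26.1% lower, so these counts are near the general share. Vldlr, the receptor for VLDL, had a log2 fold change of -1.65 (adjusted p = 1.37e-05, limma), from 2.48, 2.49 and 1.97 RPKM in the rescue lines to 0.537, 0.333 and 0.319 RPKM. Gramd1b, which carries cholesterol from the plasma membrane to the endoplasmic reticulum, also fell, with a log2 fold change of -1.22.

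Among 9 genes for sterol sensing and SREBP processing, 2 were higher and 0 lower, where 26.2% of all genes were higher and 26.1% lower. Srebf1, one of the SREBP genes, was higher by 0.71 (adjusted p = 0.00738, limma) and Scap by 0.58 (adjusted p = 0.0194, limma). Srebf2, the SREBP gene most tied to cholesterol synthesis, differed by 0.05 (adjusted p = 0.833, limma), with 82.6, 79.6 and 119.7 RPKM against 95.7, 95.2 and 77.9 RPKM. Insig2, the other INSIG gene, differed by -0.18 (adjusted p = 0.388, limma), with values of 5.41 to 6.94 RPKM against 6.43 to 7.93 RPKM, so that its groups overlapped where those of Insig1 did not.

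Among 9 measured genes for efflux, esterification and oxysterols, 1 was higher and 6 lower. For this and the other lists of this paragraph, the share over all genes was 26.2% higher and 26.1% lower. Apoe, the carrier of secreted cholesterol, had a log2 fold change of -2.75 and Abcg1, a sterol exporter, of -1.75, with adjusted p of 3.69e-06 and 3.15e-05 in limma. Of 13 genes for fatty acid synthesis and desaturation, 5 were higher and 1 lower, with Fasn, fatty acid synthase, higher by 2.20 and Acaca, acetyl-CoA carboxylase, by 1.19. Of 9 genes that use isoprenoids outside the sterol branch, 3 were higher and 1 lower, led by Pdss1 of coenzyme Q synthesis at 1.46. Markers of other states moved in the same comparison. Of 5 epiblast markers 3 were higher and 1 lower, with a summed level of 359 to 492 RPKM in the knockout and 163 to 204 RPKM in the rescue lines. Of 8 extraembryonic endoderm markers, 7 of which passed the filter on low values, 3 were higher (Krt19, Sparc and Fgfr2). The regulators Gata4 (-1.75) and Gata6 (-1.59) were the 2 that were lower. The sums were 304 to 401 RPKM and 101 to 123 RPKM. Most of each was Krt19 and Sparc, with means of 173.8 and 147.6 RPKM in the knockout, so the sum does not stand for the whole list. Of 6 fibroblast markers 2 were higher and 2 lower, with sums of 13.7 to 27.8 RPKM and 22.9 to 30.2 RPKM. The pluripotency markers, 4 of 8 lower, added up to 768 to 855 RPKM and 970 to 1057 RPKM. The part of these cell states in the members' differences was not tested.

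Loss of Prdm14 was set against the FH-Prdm14 lines of the same clones. These lines held 79.8 to 116.4 RPKM of Prdm14 RNA, against 2.77 RPKM in wt serum+LIF cells. Loss of Prdm14 and its raised level in the reference therefore cannot be told apart in this comparison. Of the 6 measured members 3 were higher and 0 lower, where 25.2% of all genes tested differed (11.4% higher). Fdps was at 144.2 and 145.8 RPKM in Prdm14-/- clones G6 and F10 and at 100.2 and 96.8 RPKM in their rescue lines, a log2 fold change of 0.56 (SE 0.14, adjusted p = 0.0108, limma). Sqle was at 38.0 and 37.7 RPKM against 26.6 and 27.1 RPKM, a log2 fold change of 0.49 (adjusted p = 0.0495, limma). Cyp51 was at 18.1 and 23.2 RPKM against 15.2 and 14.7 RPKM, a log2 fold change of 0.44 (adjusted p = 0.0474, limma). With the single wt serum+LIF library as reference, the log2 fold change was 0.095 for Fdps, 0.148 for Sqle and -0.440 for Cyp51.

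Against the FH-Prdm14 lines Sqle and Cyp51 stood just inside the threshold. With a replicate block by clone Fdps alone passed (adjusted p = 0.0316, limma), Sqle was at 0.0938 and Cyp51 at 0.0748. Without any 1 of the 4 libraries of this comparison, 0 or 1 members passed. Lss (0.45, 95% interval 0.001 to 0.91, adjusted p = 0.135, limma) passed in 2 of 14 alternatives, the compared conditions alone and the GC adjustment, with 27.0 and 25.3 RPKM against 19.3 and 18.5 RPKM.

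Idi1 differed widely between the Prdm14-/- clones, at 21.6 RPKM in G6 and 33.9 RPKM in F10, and the rescue lines, at 26.0 and 26.8 RPKM, lay between them. Insig1 was at 55.8 and 65.8 RPKM against 67.2 and 64.2 RPKM, a log2 fold change of -0.12 (95% interval -0.52 to 0.29, adjusted p = 0.694, limma). Among the 15 further enzymes 3 were higher and 0 lower, among them Lbr at 0.53 and Sc5d at 0.55. Over all genes 11.4% were higher. Srebf1 (0.24), Srebf2 (0.56) and Insig2 (0.36) did not pass the threshold. All 5 epiblast markers were higher in this comparison, from a sum of 42.4 to 53.7 RPKM in the rescue lines to 267 to 313 RPKM. Of the extraembryonic endoderm markers 4 of 8 were higher (Krt19, Gata4, Dab2 and Fgfr2), and 7 of 8 pluripotency markers were lower. The endoderm sums were 136 to 138 RPKM in the rescue lines and 336 to 341 RPKM in the knockout, most of each from Krt19 and Sparc. Their part in the members' differences was not tested.

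The effects of the 2 knockouts, each against its own rescue lines, were then compared in 1 test, for which 31.4% of all genes passed the threshold (17.1% higher and 14.3% lower). Of the members, 3 did. For Sqle the effect in the Mtgr1 lines was above that in the Prdm14 lines by 1.05 (log2, SE 0.21, adjusted p = 0.00359, limma). For Idi1 it was above by 0.78 (adjusted p = 0.0306, limma). For Insig1 it was lower, with a difference of -0.99 (SE 0.24, adjusted p = 0.00885, limma). For Fdps (-0.15, 95% interval -0.54 to 0.23), Lss (0.18, -0.40 to 0.77) and Cyp51 (-0.30, -0.71 to 0.12) no difference between the effects was resolved. The call of Idi1 was lost without clone G6 of the Prdm14-/- cells, where the difference fell to 0.46, and also without either FH-Prdm14 line, without clone A3 of the Mtgr1-/- cells or without FH-Mtgr1 C3. In the same test 4 of the 15 further enzymes were higher, among them Acat2, Hsd17b7 and Nsdhl, and 0 lower. The rescue lines are unlike as references. Mean Prdm14 RNA was 98.1 RPKM in FH-Prdm14 lines, with 2.77 RPKM in the wt serum+LIF library. Mean Cbfa2t2 RNA was 26.7 RPKM in FH-Mtgr1 lines, with 40.7 RPKM in that library. From that library, FH-Prdm14 and FH-Mtgr1 lines differed by -0.34 and -0.60 (Sqle), -0.89 and -1.09 (Idi1), and -0.44 and -0.235 (Insig1). The part of the rescue lines in these differences was not tested.

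Compared directly, Mtgr1-/- and Prdm14-/- cells differed in 3 members, where 35.4% of all genes tested differed (14.4% higher and 21.1% lower in Mtgr1-/- cells). Sqle was higher in Mtgr1-/- cells by 0.78 (adjusted p = 0.00224, limma) and Idi1 by 0.58 (adjusted p = 0.0226, limma), and Insig1 had a log2 fold change of -0.79 (adjusted p = 0.00416, limma). The Sqle and Insig1 values of the 2 knockouts did not overlap. Without clone G6 the difference of Idi1 was 0.26, and without G6 or without the Mtgr1-/- clone A3 it no longer passed, nor did it with the compared conditions alone (adjusted p = 0.103, limma).

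The E294K lines carry Prdm14 RNA at 89.9 to 105 RPKM, within the 79.8 to 116.4 RPKM of the FH-Prdm14 lines, and differ from them by 1 amino acid. This comparison shares the FH-Prdm14 libraries with that of the Prdm14-/- cells. Of the members 2 were higher and 0 lower in E294K than in FH-Prdm14 cells, where 19.5% of all genes differed (6.35% higher). Sqle was at 47.3 and 43.9 RPKM in the E294K lines of G6 and F10, against 26.6 and 27.1 RPKM, a log2 fold change of 0.75 (SE 0.17, adjusted p = 0.00852, limma). Fdps was at 137.0 and 134.9 RPKM against 100.2 and 96.8 RPKM, a log2 fold change of 0.46 (adjusted p = 0.0329, limma).

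The other members did not pass the threshold. Idi1 was at 37.0 and 37.4 RPKM against 26.0 and 26.8 RPKM (log2 fold change 0.49, adjusted p = 0.092, limma), Lss at 27.2 and 26.5 RPKM against 19.3 and 18.5 RPKM (0.49, adjusted p = 0.116, limma) and Cyp51 at 19.9 and 20.7 RPKM against 15.2 and 14.7 RPKM (0.43, adjusted p = 0.0626, limma). Insig1 was at 49.9 and 48.4 RPKM against 67.2 and 64.2 RPKM (-0.42, adjusted p = 0.138, limma). When limma took the spread from these 4 libraries alone, all 6 passed. With a replicate block by clone Sqle alone did (adjusted p = 0.0279, limma), with Fdps at 0.0708, and without any 1 of the 4 libraries 0 did. Of the further enzymes 3 were higher and 0 lower, among them Sc5d at 0.74 and Nsdhl at 0.70. Over all genes 6.35% were higher. Of the epiblast markers 4 of 5 were higher (sums up to 315 RPKM, against 42.4 to 53.7 RPKM) and 6 of 8 pluripotency markers were lower (sums of 1541 to 1681 RPKM against 1996 to 2051 RPKM), and their part was not tested.

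E294K and Prdm14-/- cells, which differ by the presence of the mutant protein, had 0 members past the threshold in limma, where 32.9% of all genes differed (15.1% higher and 17.8% lower). At an unadjusted p under 0.05 Idi1 alone passed (0.45, adjusted p = 0.086, limma), and with voom on the reads 0 did. The intervals were -0.39 to 0.20 for Fdps, -0.10 to 0.63 for Sqle, -0.42 to 0.49 for Lss, -0.34 to 0.31 for Cyp51 and -0.71 to 0.11 for Insig1, all on the log2 scale.

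The culture media were compared in wt mESCs, where serum+LIF has a single library, so that it is assumed to vary like the other conditions. Of the members 1 passed the threshold, against a background of 22.9% (9.28% higher and 13.6% lower in 2i+LIF). Idi1 was at 29.7 and 28.8 RPKM in 2i+LIF and 49.3 RPKM in serum+LIF, the highest value of all 15 libraries, and its log2 fold change was -0.74 (SE 0.23, adjusted p = 0.0375, limma). That call was lost with either 2i+LIF library left out, with the compared conditions alone and with the GC or gene length adjustment, and with the 3 FH-Mtgr1 libraries in place of the wt serum+LIF library the direction turned, with a log2 fold change of 0.34 (adjusted p = 0.141, limma).

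Insig1 was at 110.1 and 131.1 RPKM in 2i+LIF and 89.3 RPKM in serum+LIF, a log2 fold change of 0.43 (adjusted p = 0.197, limma), and Cyp51 was at 34.0 and 38.4 RPKM against 27.9 RPKM (0.37, adjusted p = 0.164, limma). With the GC adjustment, under which Idi1 was lost, Cyp51 was at 0.64 and passed (adjusted p = 0.00935, limma). In both genes the 2i+LIF libraries were the highest 2 of all 15. Against the FH-Mtgr1 libraries Cyp51 (0.79, adjusted p = 0.000817), Insig1 (0.66, adjusted p = 0.00978) and Sqle (0.60, adjusted p = 0.00865) passed the threshold in limma. Sqle was at 41.2 and 28.3 RPKM in the 2i+LIF libraries, on either side of the 34.1 RPKM in serum+LIF. Fdps also lay on both sides (153.9 and 124.7 RPKM, and 135.7 RPKM), while Lss was at 26.7 and 21.4 RPKM against 31.5 RPKM (-0.39, adjusted p = 0.289, limma). The 2i+LIF libraries were further apart from each other than the libraries of any other condition in Sqle.

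Of the 15 further enzymes 0 passed between the media in limma, and of the uptake and transport genes 3 were higher in 2i+LIF and 0 lower. Npc2, which hands cholesterol on in the lysosome, was at 90.5 and 142.4 RPKM against 51.1 RPKM (log2 fold change 1.14, adjusted p = 0.00769, limma), and Stard3, a sterol transporter, rose by 0.76. Soat1, which esterifies cholesterol for storage, was at 2.92 and 7.08 RPKM against 22.4 RPKM (-2.17, adjusted p = 0.00107, limma). Srebf1 (0.81, adjusted p = 0.0571, limma), Srebf2 (0.25) and Insig2 (-0.06) did not pass. All 5 epiblast markers were lower in 2i+LIF, with sums of 23.3 to 38.9 RPKM against 252 RPKM, and their part was not tested.

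The knockout and rescue lines were also read against the single wt serum+LIF library, which these comparisons share. Not all increases seen against FH-Mtgr1 cells were seen here. Mtgr1-/- cells had a log2 fold change against the wt library of -0.28 for Idi1, -0.12 for Lss and 0.32 for Fdps. Over the 20 measured enzymes the median log2 fold change of Mtgr1-/- cells was 0.13 against the wt library and 0.49 against FH-Mtgr1 cells. In Mtgr1-/- cells 37.0% of all genes differed (14.9% higher and 22.1% lower) and 2 members did, Sqle with a log2 fold change of 0.93 (adjusted p = 0.00301, limma) and Insig1 with -1.35 (adjusted p = 0.000683, limma). In Prdm14-/- cells 25.4% of all genes differed (11.7% higher and 13.7% lower) and 1 member did, Idi1 with -0.85 (adjusted p = 0.0222, limma). In FH-Prdm14 cells 12.5% differed (6.92% higher and 5.60% lower) and 2 members did, Cyp51 with -0.88 (adjusted p = 0.011, limma) and Idi1 with -0.89 (adjusted p = 0.0296, limma). In FH-Mtgr1 cells 2.74% differed (1.03% higher and 1.71% lower) and 1 member did, Idi1 with -1.09 (adjusted p = 0.0307, limma). Idi1 was below the wt library in all 14 other libraries, so that its differences rest on that 1 library. Its calls were also lost without Prdm14-/- clone G6, without either FH-Prdm14 line and without any 1 of the FH-Mtgr1 lines, and that of Cyp51 without either FH-Prdm14 line. In the FH-Prdm14 lines the log2 fold changes of the 6 measured members against the wt library ran from -0.89 to -0.34, with 0.02 as the median of all genes. The share of all genes below that single library was not counted. The median of all genes shifted by -0.10 on the log2 scale against median-of-ratios scaling in the comparisons of Mtgr1-/- and of FH-Mtgr1 cells with the wt library. Under that scaling Fdps in FH-Mtgr1 cells turned from -0.08 to 0.04.

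FH-Prdm14 cells in serum+LIF were set against wt cells in 2i+LIF, where 23.5% of all genes differed (7.97% lower) and 3 members were lower. Cyp51 was at 15.2 and 14.7 RPKM against 34.0 and 38.4 RPKM, a log2 fold change of -1.25 (SE 0.15, adjusted p = 0.000112, limma) that passed in all 13 alternatives. Insig1 was lower with -0.87 (adjusted p = 0.0056, limma) and Fdps with -0.49 (adjusted p = 0.0214, limma). Insig1 missed the threshold with the compared conditions alone (adjusted p = 0.0606, limma). Fdps missed it in that fit (adjusted p = 0.164, limma), without replicate 1 of 2i+LIF, where it was -0.34, and without either FH-Prdm14 line. Sqle (-0.34, adjusted p = 0.161, limma) passed in 4 of the 13 alternatives, which were median-of-ratios scaling, the GC adjustment, the gene length adjustment and leaving out replicate 2 of 2i+LIF, where it was -0.61. Of all 20 measured enzymes 7 were lower and 0 higher. Medium and Prdm14 level both differ in this comparison and cannot be told apart.

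Sqle and Insig1 had a Pearson r of -0.72 over the 15 libraries on the log2 scale, while Sqle went with Lss (0.79), Fdps (0.76) and Idi1 (0.73). The 3 Mtgr1-/- libraries had the highest Sqle and the lowest Insig1, and r without them was not computed. Replicate 1 of 2i+LIF was high in both, at 41.2 RPKM for Sqle and 110.1 RPKM for Insig1. Cyp51 had its highest r with Fdps (0.45) and Insig1 (0.44). These values describe 15 libraries that fall into 7 conditions and share their parental line, so they carry no test.

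**Figure D4:**
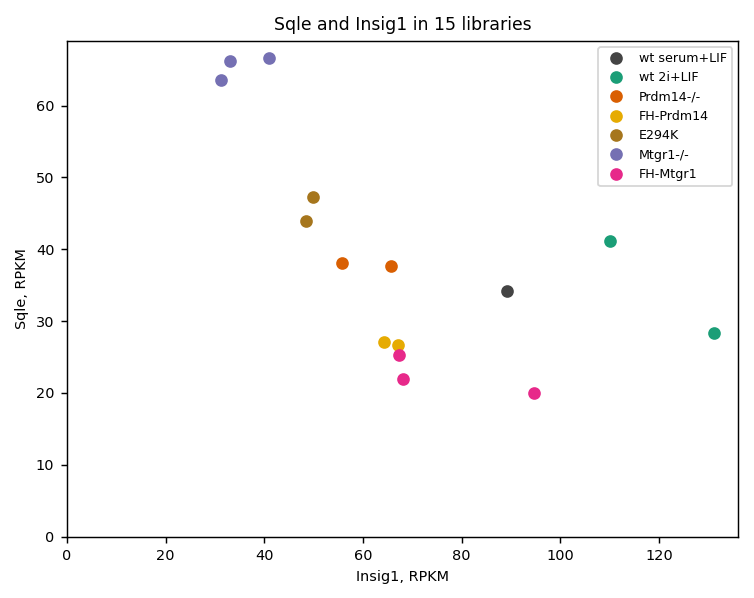
Sqle (y axis) against Insig1 (x axis), both in RPKM, with 1 point per library, coloured by condition. The 3 Mtgr1-/- libraries lie apart at high Sqle (63.6 to 66.7 RPKM) and low Insig1 (31.1 to 41.0 RPKM), and the 2i+LIF libraries have the highest Insig1, at 110.1 and 131.1 RPKM.

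Genes whose pattern was most like the mean of the measured members over the 15 libraries were Itga6 (r = 0.91), Cyfip1 (0.90), Myo10 (0.88), Nsdhl (0.86), Stt3b (0.84), Dlat (0.83), Lrba (0.81), Arfgef1 (0.81), B3gnt5 (0.81) and Gbf1 (0.81). Of these 10 genes 1, Nsdhl, was in the lists of sterol and fatty acid genes.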

How the data were processed

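RNA-seq values of 15 libraries were used. ChIP-seq samples were not used here. Per the methods, Tophat (mm9) and HTSeq with RefSeq genes produced the counts, and the authors deposited RPKM values with the gene length. The submitters' notes list both mm9 and GRCm38. The deposited values gave whole reads in 100.0% of cases (within 0.01 of a read), from which depth was taken. Intervals given are those of the fitted differences.

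log2(RPKM + 0.5) of the 13477 genes with at least 1 RPKM in at least 2 libraries was fitted with limma 3.58.1 (trend) in R 4.3.3, with 1 mean per condition, and p-values were adjusted over all genes tested (Benjamini-Hochberg, threshold 0.05). All adjusted p-values come from limma. The pseudocount understates changes of low genes. The fit was run on simulated reads, drawn without differences between clones and with planted changes wider than any difference of a member. That run does not show how the fit does at the spread of the real libraries. Alternatives changed the pseudocount, the filter, the libraries in the fit, the scaling and the replicate block, used voom on the reads, or removed a lowess trend on GC content (known for 12046 genes) or gene length. Promoter starts were matched with minimap2 2.31-r1302 and figures drawn in Python 3.11.15 with matplotlib 3.10.9.

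The replicate block pairs lines by parental clone, which the labels name. Same-clone deviations correlated across genes at 0.30 for Prdm14-/- and FH-Prdm14 lines and from -0.18 to 0.06 for the Mtgr1 lines. Libraries of 1 condition differed by more than sampling noise (chi-square per degree of freedom 3.42 to 69.2), so none were merged.

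Genes named are the 7 members, up to 4 genes per list with the smallest adjusted p, Srebf1, Srebf2, Insig2, the targeted genes, and the 10 genes most correlated with the members' mean, some of which are not reported here. Members and lists were chosen with earlier results of these data known.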

Additional observations from a re-analysis of the deposited data

Results flagged for a closer look

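The effect of a knockout against its own rescue lines differed between the Mtgr1 and the Prdm14 lines for 3 members, by a test of the difference itself in limma over all genes. Sqle differed by 1.05 on the log2 scale, with the larger increase in the Mtgr1 lines, and Idi1 by 0.78 in the same direction. Insig1 differed by -0.99, with the larger decrease in the Mtgr1 lines. The rescue lines that serve as references are unlike in the RNA level of the added gene. Their part in these differences was not tested. No condition had the 4 libraries that a search for single outlying libraries needs.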

How the results depend on the processing

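For Mtgr1-/- against FH-Mtgr1 cells 5 members passed in every alternative, leaving out each library included. For Mtgr1-/- against wt serum+LIF cells 2 to 3 did, and for the difference between the knockout effects and for Mtgr1-/- against Prdm14-/- cells 2 to 3 and 2 to 4. Elsewhere counts changed. For 2i+LIF against serum+LIF (1), 0 passed with only the compared conditions or the gene length adjustment, 3 with FH-Mtgr1 as reference, and 0 to 0 without single libraries. For Prdm14-/- against FH-Prdm14 (3), 1 passed with the stricter filter, 1 with the replicate block by clone and 0 to 1 without single libraries. For E294K against FH-Prdm14 (2), 6 passed with only the compared conditions, 4 with median-of-ratios scaling, 5 with the gene length adjustment, 1 with the replicate block and 0 to 0 without single libraries. For E294K against Prdm14-/- (0), 1 passed with the gene length adjustment and 0 to 1 without single libraries. Against wt serum+LIF, Prdm14-/- (1) gave 0 with only the compared conditions or the GC adjustment and 0 to 2 without single libraries, FH-Prdm14 (2) gave 6 with only the compared conditions and 0 to 0 without single libraries, and FH-Mtgr1 (1) gave 0 with only the compared conditions or the gene length adjustment and 0 to 0 without single libraries. FH-Prdm14 against 2i+LIF (3) gave 1 with only the compared conditions. A count can hide a swap. For 2i+LIF against serum+LIF the GC adjustment dropped Idi1 and added Cyp51 (0.64). Fdps was added by the GC and gene length adjustments for Mtgr1-/- against Prdm14-/- cells and, with median-of-ratios scaling too, against wt serum+LIF cells. The replicate block changed no other call of a member. The gene length adjustment was added after the data were seen. The causes were not tested.

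Over all genes, the counts past the threshold ranged from 0 to 4874 over the alternatives for 2i+LIF against serum+LIF (3084), 4643 to 8005 for Mtgr1-/- (7051) and 1521 to 3852 for Prdm14-/- (3390) against their rescue lines, 747 to 7214 for E294K against FH-Prdm14 (2633) and 1492 to 5294 against Prdm14-/- (4435), 626 to 4989 for FH-Prdm14 against 2i+LIF (3163), 2979 to 5306 for Mtgr1-/- against Prdm14-/- (4776) and 2524 to 4835 for the difference between knockout effects (4238). Against wt serum+LIF they were 3160 to 5551 for Mtgr1-/- (4992), 625 to 3619 for Prdm14-/- (3423), 297 to 5058 for FH-Prdm14 (1687) and 0 to 639 for FH-Mtgr1 (369).

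Some directions turned, none at an adjusted p under 0.05 in limma. For 2i+LIF against serum+LIF, Sqle was -0.004 with voom, Fdps -0.002 with the gene length adjustment, and Lss 0.36 and Idi1 0.34 with FH-Mtgr1 as reference. Without single 2i+LIF libraries Sqle ranged from -0.267 to 0.268 and Fdps from -0.122 to 0.181. Without single libraries, Insig1 ranged from -0.233 to 0.002 and Idi1 from -0.282 to 0.355 in Prdm14-/- against FH-Prdm14, Lss from -0.005 to 0.084 and Cyp51 from -0.187 to 0.161 in E294K against Prdm14-/-, Cyp51 from -0.016 to 0.332 in Mtgr1-/- against Prdm14-/-, and Lss from -0.026 to 0.295 in the difference of knockout effects. Cyp51 was 0.013 with the gene length adjustment in E294K against Prdm14-/-. Against wt serum+LIF, Idi1 in Mtgr1-/- was 0.133 with the GC adjustment, and Fdps in FH-Mtgr1 was 0.038 with median-of-ratios scaling and 0.004 with the GC adjustment.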

Other observations

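Genes nearest in pattern to single members were read with a rule added after the values were seen. Over the 15 libraries Insig1 went with Clcn1 (r = 0.95), Pld6 (0.95) and Gm2a (0.95). The last encodes a lysosomal activator protein of glycolipid breakdown and was lower in Mtgr1-/- cells, at -2.07 on the log2 scale against the rescue lines. Sqle went with Tpm3 (0.97) and Pgd (0.97), the latter an NADPH-producing enzyme of the pentose phosphate pathway that was higher by 1.28 in the same comparison. Cyp51 was nearest to Fads1 (0.89), a fatty acid desaturase that was higher in 2i+LIF than in serum+LIF by 0.65. As these genes were picked for their likeness to a member over the same libraries, their differences follow from that choice and carry no test.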
